A study of Homo sapiens with 12 samples.

Results

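Ligands of the tumor necrosis factor (TNF) family, their receptors and a receptor adaptor were followed as 10 genes chosen by symbol. These were the ligands TNF, LTB and TNFSF10, the receptors TNFRSF1A, TNFRSF1B, TNFRSF10A, TNFRSF10B, TNFRSF21 and TNFRSF12A, and the adaptor TRADD. Each matched 1 of the 12451 entries of the count table. The 10 were among the 11303 genes that were tested because they had enough reads in at least 3 libraries, of whichever group. TNF ligands act as trimers at the cell surface or in soluble form. They gather their receptors into clusters. Some receptors with a death domain, such as TNFRSF1A, bind the adaptor TRADD. From there they reach either the NFκB and kinase branches or, with caspases, the cell death branch. Receptors without a death domain, such as TNFRSF1B and TNFRSF12A, bind TRAF proteins directly. TNF and LTB are themselves well-known NFκB target genes, so a cell given TNFα can add to the signal with transcripts of its own.

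The libraries were made from MDA-MB-231-ERβ cells, a triple negative breast cancer (TNBC) line engineered to make full length ERβ, the estrogen receptor encoded by ESR2, when doxycycline (dox) is present. The vehicle, TNFα and E2 libraries are labelled as dox treated. Dox is missing from the labels of the E2+ TNFα group, but the shared treatment protocol gives it for the whole experiment, so induced ERβ is common to the 4 groups and its effect cannot be read from them. E2 (17β-estradiol) was given at 1 nM over 5 days. TNFα was given at 20 ng/ml in the last 3 h of culture, alone or on top of E2. Each group has 3 libraries from dishes plated in triplicate, and p-values measure the spread between these dishes of a single engineered line. Added TNFα is protein, whereas the values for TNF below are the cells' own transcript.

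Reads assigned to genes ranged from 7.65 to 39.9 M per library, and were fewest in the E2 group (7.65 to 15.8 M). ESR2, the induced gene, was detected at a mean of 472.5 ± 14.9 CPM (reads scaled to the TMM-normalised library total, ± SD, n = 3) in vehicle, 255 ± 26.7 in TNFα, 306 ± 14.7 in E2 and 448.5 ± 53.2 in E2+ TNFα. The line's mesenchymal-like markers were present (6 of 6, summing to 6773 to 11478 CPM), and ESR1, PGR and FOXA1, which define luminal breast cells, were not among the entries used here. The other 5 luminal markers summed to 373 to 445 CPM without E2 and 2088 to 3267 CPM with E2, mostly from KRT19, and the part of this in the results was not tested. Of 7 leukocyte markers, 4, among them PTPRC, were not among the entries, and the other 3 summed to 76.6 to 108.6 CPM, mostly from CD68. Of 6 endothelial and fibroblast markers 2 were among the entries, with a sum of 2.53 to 19.3 CPM, mostly from PDGFRB. The 3 vehicle libraries stood apart. Across the 11303 genes their rank correlation with libraries of the other groups was 0.706 to 0.863, against 0.928 to 0.989 between the other groups and 0.973 to 0.998 within groups. The first principal component (68.7% of the variance) separated them from the other 9. Changes relative to vehicle rose with the GC content of a gene's exons, with a Spearman correlation across genes of 0.71 for TNFα and 0.66 for E2. The same correlation was -0.33 for E2+ TNFα against E2 and -0.21 for E2+ TNFα against TNFα, which do not use the vehicle libraries. With exon length the correlation was -0.31 for TNFα and -0.38 for E2 relative to vehicle, and 0.050 for E2+ TNFα against TNFα. It was largest in size, 0.46, for E2+ TNFα against E2, so that comparison is not free of such trends. The study's methods mention a batch correction based on housekeeping genes, but no source used here says which libraries formed a batch, so a property of the vehicle libraries and the vehicle treatment cannot be told apart. Values relative to vehicle are therefore followed by those obtained after the trends of every library with exon GC content and length had been removed ("trends removed"), or, where it changes a call or a direction, after a factor estimated from 20 housekeeping genes was added to the fit ("housekeeping factor"), the alternative nearest to that correction. For the same reason comparisons among the other 9 libraries are given first. In bulk RNA, fewer cells that express a gene and less RNA per cell cannot be told apart.

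TNF and LTB, which encodes lymphotoxin β, a membrane ligand that pairs with lymphotoxin α, are neighbours on chromosome 6. In the deposited hg38 coordinates TNF spans chr6:31575567-31578336 on the plus strand and LTB chr6:31580558-31582425 on the minus strand, with 2221 bases between their ends. They lie in the major histocompatibility complex, for which hg38 also holds alternative contigs. Whether the mapping included these is not given in the sources used here, so reads that match them may be missing from the levels of either gene and from their ratio. The sequence before their starts is shown because these were the members with the largest changes. The 250 bases upstream of each RefSeq start (GRCh38.p14) are given on the strand of the gene, for TNF from chr6:31575315-31575564 and for LTB from chr6:31582426-31582675. Capitals mark, in TNF, the 1 match to a loose NFκB-like motif, GGG and CC with any 5 bases between them, from 101 to 92 bases before the start. In LTB they mark the 1 match to the stricter NFκB consensus, which lies on the opposite strand from 86 to 77 bases before the start.
TNF: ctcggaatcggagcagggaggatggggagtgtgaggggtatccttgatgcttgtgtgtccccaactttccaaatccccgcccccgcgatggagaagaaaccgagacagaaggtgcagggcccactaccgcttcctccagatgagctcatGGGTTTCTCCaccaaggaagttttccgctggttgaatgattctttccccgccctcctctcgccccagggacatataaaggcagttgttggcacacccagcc
LTB: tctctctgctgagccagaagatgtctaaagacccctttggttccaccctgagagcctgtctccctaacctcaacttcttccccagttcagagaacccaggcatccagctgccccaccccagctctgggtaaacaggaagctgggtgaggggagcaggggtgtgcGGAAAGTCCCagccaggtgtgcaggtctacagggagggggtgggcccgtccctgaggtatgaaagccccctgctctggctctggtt
With both strands searched and overlapping matches counted, the loose motif had 1 match in the TNF window and 7 in the LTB window. A stretch that matched on both strands was counted once for each. This was so in LTB from 49 to 40 bases before the start and in TNFRSF1B from 180 to 171. It is common, since 70.4% of the 9814 promoters of entries in the count table hold at least 1 match, whereas 8.10% hold the NFκB consensus. Windows of the same length held 1 match for TNFSF10, 4 for TNFRSF1B, 2 for TNFRSF21 and none for TNFRSF1A, and no NFκB consensus was found in these. A match is a description of letters, and no binding was measured here.

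TNF transcript was low without added TNFα and highest with TNFα alone. The vehicle libraries had 15, 11 and 15 reads (0.363, 0.259 and 0.328 CPM), and the TNFα libraries had 1174, 1145 and 653 reads (38.7, 37.4 and 34.0 CPM). The E2 libraries had 27, 6 and 10 reads (1.85, 0.957 and 0.904 CPM), and the E2+ TNFα libraries had 159, 216 and 297 reads (9.83, 7.56 and 8.90 CPM). The 4 groups did not overlap, and their order was TNFα, E2+ TNFα, E2 and vehicle. With E2 present, TNFα raised TNF by 2.74 ± 0.26 on the log2 scale (fitted value ± standard error, 6.66-fold, edgeR adjusted p = 1.50e-05). Among TNFα treated cells, TNF was 4.20-fold lower with E2 (log2 change -2.07 ± 0.20, edgeR adjusted p = 1.13e-06). Relative to vehicle, TNFα alone raised TNF by 6.84 ± 0.27 (114-fold, edgeR adjusted p = 4.72e-11), and by 6.25 with trends removed. E2 alone raised it by 2.03 ± 0.32 (edgeR adjusted p = 3.26e-05), from 11 to 15 reads in vehicle to 6 to 27 reads in E2. This rise was 1.24 with trends removed, 1.47 with the housekeeping factor and 1.48 without E2 replicate 1, each short of the size threshold of 1.5.

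LTB followed the same order of groups at a higher read level. The vehicle libraries had 4.23, 2.70 and 3.09 CPM, and the TNFα libraries 325, 311 and 231 CPM. The E2 libraries had 35.5, 41.1 and 37.2 CPM, and the E2+ TNFα libraries 98.2, 112 and 178 CPM. No 2 groups overlapped. Relative to E2, E2+ TNFα raised LTB by 1.78 ± 0.21 (3.42-fold, edgeR adjusted p = 0.000239), which became 1.48 without E2+ TNFα replicate 3, the library with the highest value in its group. Relative to TNFα, LTB with E2+ TNFα was 2.23-fold lower (log2 change -1.16 ± 0.21, edgeR adjusted p = 0.000423), which is under the size threshold. E2 alone raised LTB by 3.50 ± 0.24 relative to vehicle (11.3-fold, edgeR adjusted p = 8.72e-09), and by 2.22 with trends removed, but by 1.40 with the housekeeping factor (edgeR adjusted p = 0.199), which did not pass. LTB was thus lower with E2 among TNFα treated cells and higher with E2 among cells without TNFα. TNFα alone raised LTB by 6.44 ± 0.26 (86.6-fold, edgeR adjusted p = 7.76e-11), and by 5.40 with trends removed. Reads of LTB per base of exon, divided by those of TNF in the same library, were 17.6 to 21.9 in vehicle, 12.8 to 15.8 in TNFα, 36.0 to 80.6 in E2 and 18.7 to 37.4 in E2+ TNFα. The E2+ TNFα libraries overlapped both vehicle and E2 in this ratio, and the E2 values rest on 6 to 27 reads of TNF. Exon GC content is 64.5% for LTB and 54.3% for TNF, and the part of the GC trend in this ratio was not tested.

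TNFSF10 encodes TRAIL, the ligand of the death receptors TNFRSF10A and TNFRSF10B. It was the least abundant member per length, at a mean of 0.59 to 1.94 reads per kilobase of exon (RPKM, with libraries scaled as for CPM) over the groups, apart from TNF in vehicle at 0.189. Its reads were 247, 235 and 290 in vehicle, 54, 69 and 59 in TNFα, 21, 14 and 30 in E2 and 16, 73 and 63 in E2+ TNFα. The vehicle libraries (5.52 to 6.35 CPM) lay above the other 9 (0.989 to 3.07 CPM), which overlapped one another. TNFSF10 fell by 1.51 ± 0.34 with E2 (edgeR adjusted p = 0.000818) and by 1.67 ± 0.31 with E2+ TNFα (edgeR adjusted p = 0.00018) relative to vehicle. With TNFα alone its change was -1.34 ± 0.31 (edgeR adjusted p = 0.000947). With trends removed these values were 0.075, -0.26 and 0.26. The E2 value fell short of 1.5 also with the size factors of DESeq2 (-1.495), with DESeq2 (-1.49) and with no filter on low values (-1.48). TNFSF10 had the lowest exon GC content of the members, 40.2%, against 50.0 to 64.5% for the others. The changes of E2+ TNFα against E2 (-0.17 ± 0.36) and against TNFα (-0.33 ± 0.32) did not pass the test (edgeR adjusted p = 0.844 and 0.452), with 95% intervals from -1.0 to 0.66 and from -1.08 to 0.42.

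**Figure D1:**
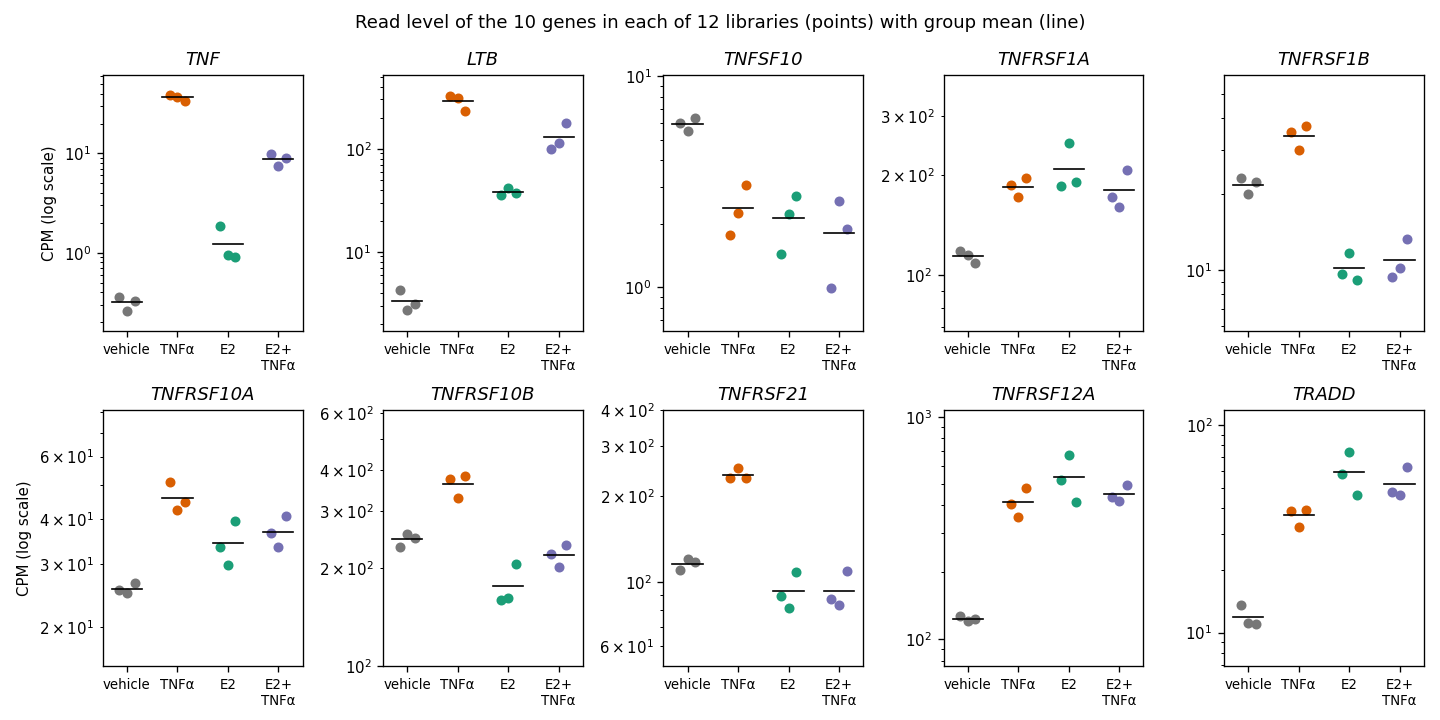
Level of each of the 10 genes in CPM (y axis, log scale, with a separate range in each panel) in vehicle, TNFα, E2 and E2+ TNFα cells; points are the 12 libraries, 3 per group, and lines are group means. TNF and LTB peak with TNFα alone (36.7 and 289 CPM) and are lower with E2+ TNFα (8.76 and 129 CPM), whereas the vehicle libraries lie highest for TNFSF10 and lowest for TNFRSF12A and TRADD.

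Of the receptors for TNF itself, TNFRSF1A, the death domain receptor found on most cells, was far the more abundant, and TNFRSF1B, which signals through TRAF2, was the one that passed the test for E2 among TNFα treated cells. TNFRSF1B had 23.1, 20.0 and 22.2 CPM in vehicle and 35.2, 30.0 and 37.1 CPM in TNFα. With E2 it had 9.65, 11.6 and 9.13 CPM, and with E2+ TNFα 9.40, 10.2 and 13.3 CPM. The 6 libraries with E2 lay below the 6 without it, while E2 and E2+ TNFα overlapped. Relative to TNFα, E2+ TNFα lowered TNFRSF1B 3.10-fold (log2 change -1.63 ± 0.17, edgeR adjusted p = 1.98e-06), and the value ranged from -1.80 to -1.54 over the fits that left out 1 library. Of its exon bases 2.33% are shared with the microRNA gene MIR7846. Relative to vehicle, TNFRSF1B with E2 fell by 1.11 ± 0.17 (edgeR adjusted p = 2.71e-05), and by 1.82 with trends removed. With the housekeeping factor it fell by 2.67, and was the 1 member called for E2 against vehicle in that fit. For E2+ TNFα against vehicle that fit gave -2.37, also past the size threshold. TNFRSF1A had means of 114 ± 4.90 CPM in vehicle, 184 ± 12.2 in TNFα, 208 ± 35.6 in E2 and 179.6 ± 24.2 in E2+ TNFα (SD, n = 3). Its vehicle libraries were the lowest and the other groups overlapped. TNFRSF1A rose by 0.69 with TNFα and 0.87 with E2 relative to vehicle (edgeR adjusted p = 0.000213 and 2.67e-05), values that became -0.0096 and 0.022 with trends removed and changed direction, to -0.55 and -0.73, with the housekeeping factor. E2+ TNFα against TNFα gave -0.038 for TNFRSF1A, with a 95% interval from -0.34 to 0.27.

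The ratio of the TNF receptors within a library does not depend on how libraries are scaled. Their exon GC contents are close, 57.5% for TNFRSF1A and 59.5% for TNFRSF1B, but their exon lengths differ, 2226 and 3857 bases. Changes with E2 relative to vehicle fell with exon length (Spearman correlation -0.38), and division by length does not remove such a trend. Its part in the ratio was not tested. The changes of each gene with trends removed are given above. Reads of TNFRSF1B per base of exon, divided by those of TNFRSF1A, were 0.112, 0.101 and 0.118 in vehicle and 0.109, 0.101 and 0.110 in TNFα. They were 0.0301, 0.0270 and 0.0277 in E2 and 0.0315, 0.0367 and 0.0372 in E2+ TNFα. The highest ratio with E2 (0.0372) lay below the lowest without it (0.101), and vehicle and TNFα overlapped. These ratios were chosen after the values had been seen and are given with no test.

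**Figure D2:**
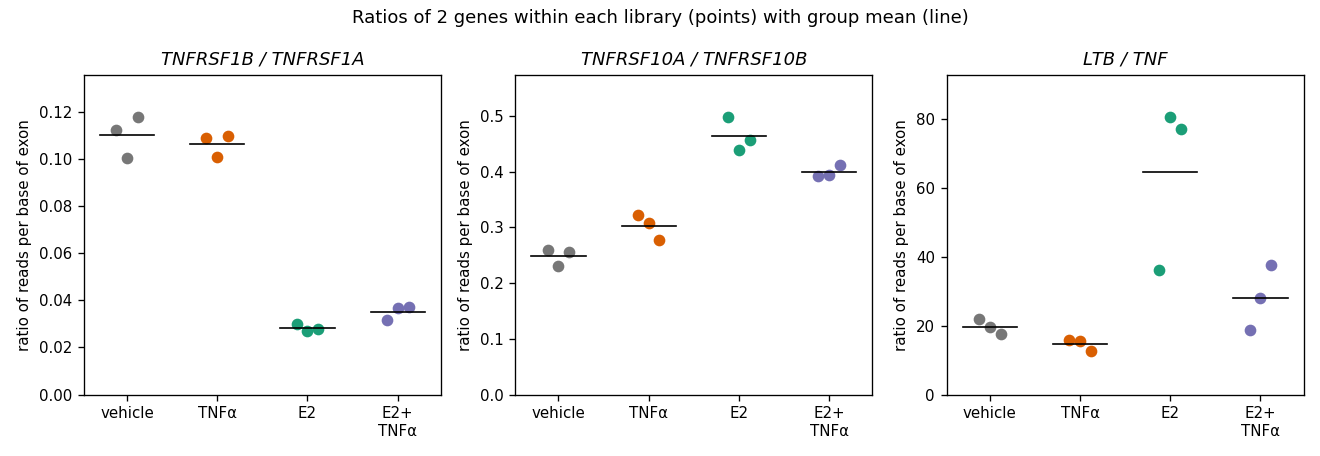
Ratio of reads per base of exon of TNFRSF1B to TNFRSF1A, of TNFRSF10A to TNFRSF10B, and of LTB to TNF (y axes, no unit, starting at 0) within each library; points are the 12 libraries by group and lines are group means. The TNFRSF1B to TNFRSF1A ratio has means of 0.110 and 0.107 in the groups without E2 and 0.0283 and 0.0351 in those with E2.

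The TRAIL receptors TNFRSF10A (DR4) and TNFRSF10B (DR5) carry death domains and lie near each other on chromosome 8. TNFRSF10A was highest with TNFα (50.8, 42.6 and 44.8 CPM), against 36.6, 33.4 and 40.9 CPM with E2+ TNFα and 24.8 to 26.6 CPM in vehicle. Its change for E2+ TNFα against TNFα was -0.32 ± 0.13 (edgeR adjusted p = 0.0758). TNFRSF10B was also highest with TNFα (375, 329 and 383 CPM), against 222, 201 and 236 CPM with E2+ TNFα. It had 159.9 to 206 CPM with E2 and 232 to 255 CPM in vehicle. TNFRSF10B was 1.65-fold lower with E2+ TNFα than with TNFα (log2 change -0.72 ± 0.12, edgeR adjusted p = 0.000272). Relative to vehicle, TNFα alone raised TNFRSF10A by 0.85 ± 0.13 (edgeR adjusted p = 3.65e-05), but by 0.26 with trends removed. It raised TNFRSF10B by 0.56 ± 0.12 (edgeR adjusted p = 0.000571), and by 0.36 to 0.59 over the alternatives other than leaving out a library. The rise did not pass in all of them (highest adjusted p of the edgeR and DESeq2 fits 0.498). No size passed 1.5 for either gene in any of the pairwise comparisons. The ratio of TNFRSF10A to TNFRSF10B per base of exon was 0.248 in vehicle, 0.302 in TNFα, 0.464 in E2 and 0.399 in E2+ TNFα (group means), and the 4 groups did not overlap. The exon GC contents of these genes are 54.1 and 50.0% and their exon lengths 1750 and 4154 bases. The part of the library trends with both in this ratio was not tested. With E2 relative to vehicle TNFRSF10A changed by 0.43 ± 0.14, but by -0.36 with trends removed and the replicate block. TNFRSF10B changed by -0.48 ± 0.12, and by -0.83 to -0.45 over the alternatives other than leaving out a library. This fall also did not pass in all of them (highest adjusted p of the edgeR and DESeq2 fits 0.447). Exons of TNFRSF10B share 377 bases (9.08%) with RHOBTB2 on the opposite strand and those of TNFRSF10A share 7.77% with a divergent transcript. The libraries were stranded, but whether the counting used strand is not given in the sources used here, so reads in these bases cannot be assigned with certainty.

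TNFRSF21 (DR6), a death domain receptor, was higher with TNFα in cells without E2. It had 231, 251 and 232 CPM with TNFα and 110.0, 121 and 118 CPM in vehicle. With E2 it had 89.3, 81.3 and 108 CPM, and with E2+ TNFα 87.4, 83.1 and 109.7 CPM. The TNFα libraries lay above the other 9. TNFRSF21 was 2.55-fold lower with E2+ TNFα than with TNFα (log2 change -1.35 ± 0.13, edgeR adjusted p = 1.28e-06), which is short of the size threshold. With TNFα alone it rose by 1.04 ± 0.13 relative to vehicle (edgeR adjusted p = 4.24e-06), and by 0.81 with trends removed. With E2 present TNFα gave 0.0060 ± 0.13, with a 95% interval from -0.30 to 0.31. The difference between the responses, -1.03 ± 0.19, passed at an adjusted p of 0.000177 (edgeR interaction), and was -0.76 with trends removed. With the housekeeping factor neither this difference (-0.79, edgeR adjusted p = 0.334) nor the rise with TNFα alone (0.82, edgeR adjusted p = 0.257) passed.

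TNFRSF12A (Fn14), the receptor of the cytokine TWEAK, has a short tail without a death domain and was the most abundant of the 6 receptors per length in every group. It made up 42.7 ± 1.03% of their summed RPKM in vehicle, 59.7 ± 2.61% in TNFα, 73.4 ± 4.86% in E2 and 70.6 ± 0.69% in E2+ TNFα (SD, n = 3). Its exons have 1033 bases and 64.2% GC, against 1750 to 4154 bases and 50.0 to 59.5% for the other receptors. The part of the library trends with both in this share was not tested. The vehicle libraries had 127, 121 and 123 CPM and the TNFα libraries 406, 356 and 478 CPM. The E2 libraries had 519, 673 and 412 CPM and the E2+ TNFα libraries 437, 420.2 and 492 CPM. Vehicle was lowest and the 3 other groups overlapped. TNFRSF12A rose by 1.74 ± 0.16 with TNFα (edgeR adjusted p = 2.27e-07) and by 2.11 ± 0.16 with E2 (edgeR adjusted p = 2.73e-08) relative to vehicle. With trends removed these rises were 0.69 and 0.84, and with the housekeeping factor 0.49 and 0.50, and none of these passed 1.5. E2+ TNFα differed by -0.25 ± 0.16 from E2 and by 0.12 ± 0.16 from TNFα, and neither passed the test (edgeR adjusted p = 0.407 and 0.576). TNFRSF12A, TRADD and LTB had the highest exon GC contents among the members, 64.2, 64.3 and 64.5%.

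TRADD, the death domain adaptor that links TNFRSF1A to TRAF2 and RIPK1, was ordered in much the same way. It had 13.6, 11.1 and 11.01 CPM in vehicle and 38.7, 32.5 and 39.2 CPM with TNFα. It had 58.6, 74.5 and 45.9 CPM with E2 and 47.5, 46.3 and 62.9 CPM with E2+ TNFα. Vehicle was lowest, TNFα next, and the groups with E2 overlapped each other above both. TRADD was the member that was higher with E2+ TNFα than with TNFα, by 0.51 ± 0.18 (1.42-fold, edgeR adjusted p = 0.0343), and by 0.59 with trends removed. Relative to vehicle it rose by 1.63 ± 0.18 with TNFα (edgeR adjusted p = 1.19e-06) and by 2.32 ± 0.19 with E2 (edgeR adjusted p = 3.73e-08), and by 0.64 and 1.32 with trends removed, both under the size threshold. With the housekeeping factor these values were -0.061 and 0.15.

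With E2 present, the ligands TNF and LTB were the members past the thresholds for TNFα. Called genes had a log2 change of at least 1.5 in size and an edgeR adjusted p of 0.1 or less. This was 2 of 10, both higher, against 0.407% of all genes tested and 0.389% called higher. The 2 include TNF, which was tested because of the groups given TNFα, where it was high. With no limit on size TNF and LTB also passed the p threshold, as did 2.65% of all genes in the higher direction. TNFRSF10B, at 0.32 ± 0.12 with a 95% interval from 0.040 to 0.60, did not pass (edgeR adjusted p = 0.164), but with trends removed it did (0.33, edgeR adjusted p = 0.0218), as it did with the housekeeping factor and with library size only. The 7 members other than TNF, LTB and TNFSF10 had 95% intervals that lay between -0.61 and 0.60. The median of the 10 was 0.055, against 0.0082 over all genes. When genes needed at least 10 counts in every library TNF was not tested, because 1 E2 library had 6 reads.

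Among TNFα treated cells, E2 accompanied lower levels of TNF and TNFRSF1B past the size threshold, 2 of 10, against 5.56% of all genes called in either direction and 2.01% called lower. Here too TNF was tested because of the groups given TNFα. With no limit on size, 7 of 10 passed, against 45.3% of all genes, and 6 of 10 were lower, against 21.0%. The genes TNF, LTB, TNFRSF1B, TNFRSF21, TNFRSF10B and TNFRSF10A were lower, and TRADD was higher. The median of the 10 was -0.53, against 0.042 over all genes. TNFSF10, TNFRSF1A and TNFRSF12A did not pass.

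Relative to vehicle, TNFα alone raised TNF, LTB, TNFRSF12A and TRADD past the size threshold. This was 4 of 10, against 26.7% of all genes called and 6.64% called higher, and the median of the 10 was 0.94, against 0.0054 over all genes. E2 alone gave 5 of 10, against 30.5%, with the same 4 genes higher, against 9.87% of all genes, and TNFSF10 lower. E2+ TNFα also gave 5 of 10, against 25.1% (7.52% higher), and the same 5 genes in the same directions. All of these counts include TNF, which was tested because of the groups given TNFα. Those for E2 and E2+ TNFα also include TNFSF10, which was tested because of vehicle. With no limit on size the counts were 10, 10 and 9 of 10, against 81.9%, 81.8% and 80.6% of all genes, so most genes passed whatever their function. With trends removed the members past the size threshold were TNF and LTB for TNFα, LTB and TNFRSF1B for E2, and TNF, LTB and TNFRSF1B for E2+ TNFα. The 3 comparisons share the vehicle libraries. Among the genes called, 24.9% were higher with TNFα, 32.4% with E2 and 30.0% with E2+ TNFα, and with trends removed these shares were 46.4%, 52.7% and 52.9%.

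**Figure D3:**
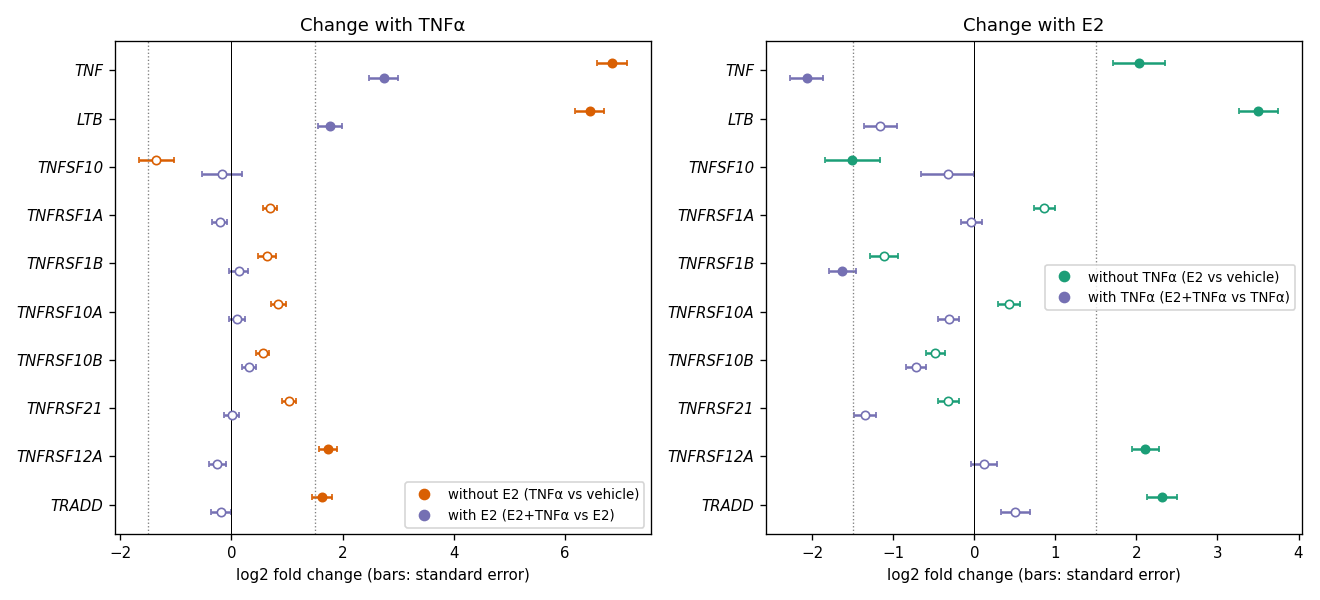
Log2 fold change of each of the 10 genes with TNFα (left) and with E2 (right), each without and with the other agent; bars are standard errors, filled points passed the size and p thresholds, and dotted lines mark 1.5 in either direction. With E2 present, TNFα moved TNF (2.74) and LTB (1.78) past 1.5, and with TNFα present E2 moved TNF (-2.07) and TNFRSF1B (-1.63).

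The interaction, the TNFα response with E2 minus that without E2, asks whether E2 changes the response to TNFα. It was -4.10 ± 0.38 for TNF (edgeR adjusted p = 6.96e-07) and -4.66 ± 0.31 for LTB (edgeR adjusted p = 6.03e-08). It was -1.99 ± 0.22 for TNFRSF12A (edgeR adjusted p = 3.02e-06) and -1.81 ± 0.25 for TRADD (edgeR adjusted p = 1.79e-05). These were 4 of 10, against 31.8% of all genes called and 9.29% called lower, and 9 of 10 passed the adjusted p at any size, against 76.6%. The 4 include TNF, which was tested because of the groups given TNFα. With trends removed TNF (-3.33) and LTB (-3.48) passed the size threshold, and TNFRSF12A (-0.74) and TRADD (-0.73) did not. With the housekeeping factor the values were -3.61, -2.81, -0.54 and, in the other direction for TRADD, 0.12. Among the genes called, 70.8% had a positive interaction, and 52.9% with trends removed.

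**Figure D4:**
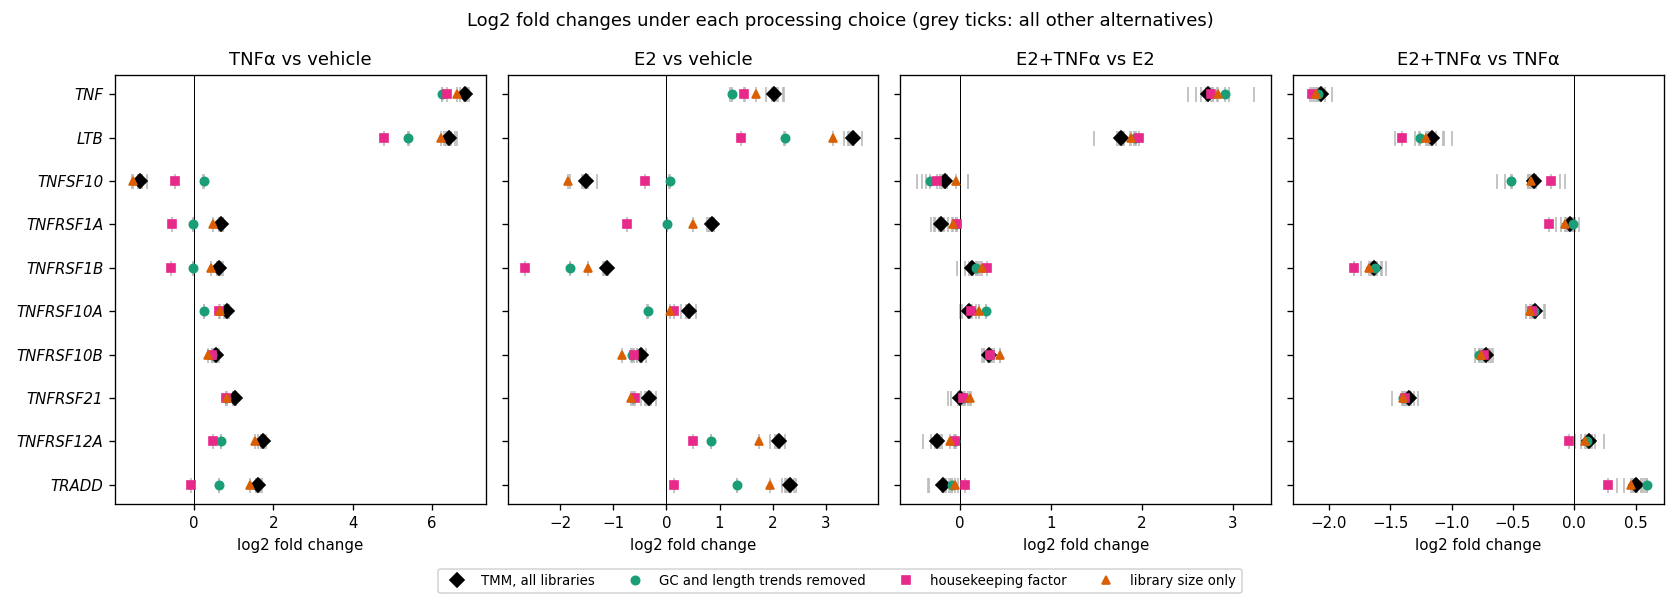
Log2 fold change of each of the 10 genes (x axis, with a separate range in each panel) in 4 comparisons under every processing choice; black diamonds are the values in the text, green circles have GC and length trends removed, pink squares add a factor from housekeeping genes, orange triangles use library size only, and grey ticks are the other alternatives. In the comparisons with vehicle TNFRSF12A moves from 1.74 to 0.49 (TNFα) and TRADD from 2.32 to 0.15 (E2), whereas in the comparison with TNFα TNFRSF1B stays between -1.80 and -1.54.

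The wider family was taken as 18 ligands, 29 receptors and 31 receptor-proximal signalling genes, which include the members. Of these 78 genes 56 were among the entries and 53 were tested. For E2+ TNFα against E2, 2 of 8 ligands, 1 of 15 receptors and 3 of 30 signalling genes were called, all higher, which together is 6 of 53 against 0.389% of all genes called higher. The ligands include TNF, which was tested because of the groups given TNFα. The list medians were 0.11, 0.13 and 0.14 against 0.0082 over all genes. The signalling genes were TRAF1 (2.97 ± 0.15), an NFκB-induced adaptor, TNFAIP3 (2.57 ± 0.12), the ubiquitin-editing inhibitor A20, and BIRC3 (2.15 ± 0.35), a ubiquitin ligase of the TRAF2 complex. The receptor was TNFRSF9 (1.57 ± 0.24), also called 4-1BB. BIRC3 and TNFRSF9 are given because the count is small and were named after their values were seen. TNFAIP3 had a mean of 67.2 ± 1.604 CPM with E2 and 398 ± 15.1 CPM with E2+ TNFα (SD, n = 3).

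For E2+ TNFα against TNFα, 2 of 8 ligands and 1 of 15 receptors were called, all lower, and 1 of 30 signalling genes was called, higher. Of all genes 2.01% were called lower and 3.55% higher. The ligands were TNF and TNFSF15 (TL1A), which had 242 to 286 reads in TNFα libraries and 5 to 32 in E2+ TNFα libraries (log2 change -4.04 ± 0.32, edgeR adjusted p = 1.09e-07). TNFSF15 was tested because of the groups without E2, where it was high (mean RPKM 1.43 in vehicle and 1.51 in TNFα). Its means were 0.066 in E2 and 0.085 in E2+ TNFα. TNF was tested because of the groups given TNFα, so the count of ligands includes both. The receptor was TNFRSF1B and the signalling gene was BIRC3 (3.44 ± 0.37, edgeR adjusted p = 3.16e-06). BIRC3 had a mean of 11.02 ± 0.959 CPM with TNFα, 119.6 ± 70.8 with E2+ TNFα and 26.8 ± 8.002 with E2 (SD, n = 3), and its E2+ TNFα libraries ranged from 49.1 to 190.6 CPM. With no limit on size, 1 ligand was higher and 3 were lower, 2 receptors were higher and 6 lower, and 11 signalling genes were higher and 6 lower, against 24.4% of all genes higher and 21.0% lower. The list medians were -0.39, -0.29 and 0.10, against 0.042 over all genes.

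**Figure D5:**
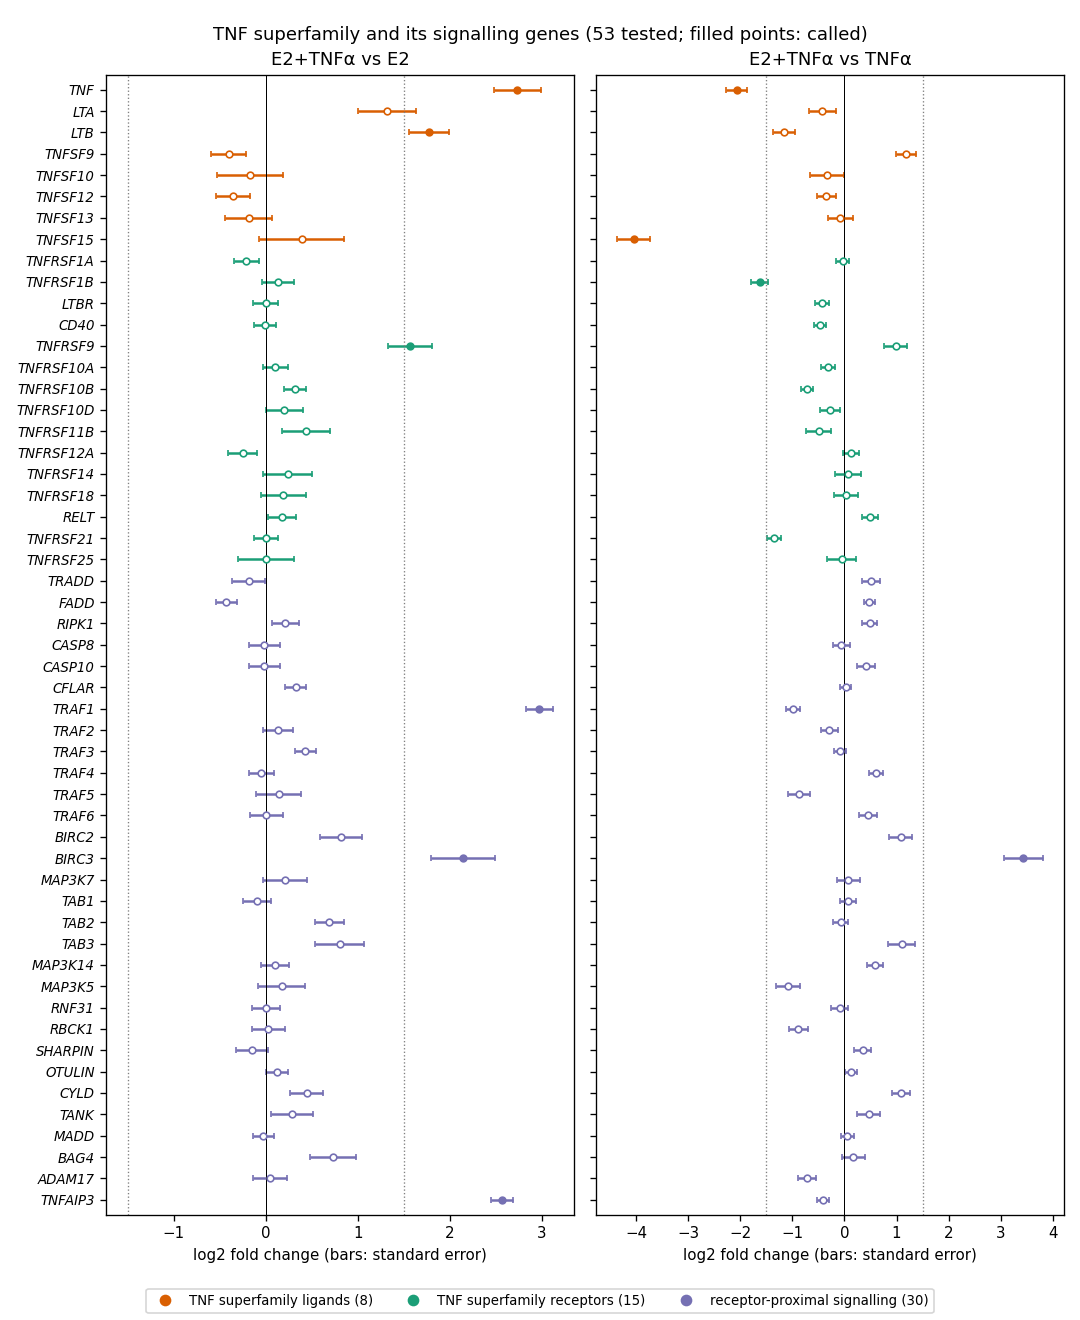
Log2 fold change (x axis, a separate range in each panel) of the 53 tested genes of the TNF superfamily and its receptor-proximal signalling, for E2+ TNFα against E2 (left) and against TNFα (right); bars are standard errors, colours are the 3 lists, filled points passed the size and p thresholds, and dotted lines mark 1.5 in either direction. The filled points are 6 higher on the left, and BIRC3 higher with TNF, TNFRSF1B and TNFSF15 lower on the right.

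Relative to vehicle the lists had calls in both directions. TNFα gave 3 ligands, 3 receptors and 3 signalling genes higher and 8 signalling genes lower, which is 9 of 53 higher and 8 lower against 6.64% and 20.0% of all genes, with TNF, LTB and TRAF1 (3.84 ± 0.15) as the largest rises and BIRC2 (-2.98 ± 0.23), BIRC3 (-2.67 ± 0.36) and the deubiquitinase CYLD (-2.48 ± 0.18) as the largest falls. E2 gave 8 of 53 higher and 12 lower, against 9.87% and 20.6% of all genes, led by LTB, TNFRSF18 (2.64 ± 0.27) and TRADD, and by TNFSF15 (-4.36 ± 0.37), TRAF5 (-2.79 ± 0.23) and BIRC2 (-2.72 ± 0.23). TNFSF15 had 390 to 445 reads in vehicle and 2 to 7 in E2 libraries. It was tested because of the groups without E2. TRAF5 was tested because of vehicle (mean RPKM 2.84, against 0.42 to 0.84 in the other groups). LTA, a ligand called higher with TNFα, was tested because of TNFα (1.79) and E2+ TNFα (1.35). The counts of list genes called include them. E2+ TNFα gave 10 of 53 higher and 8 lower, against 7.52% and 17.6% of all genes, led by LTB, TNF and TNFRSF9 (2.87 ± 0.24), and by TNFSF15 (-3.97 ± 0.31), TRAF5 (-2.65 ± 0.21) and BIRC2 (-1.90 ± 0.22). In the interaction 9 of 53 were called higher and 7 lower, against 22.5% and 9.29% of all genes, with BIRC3 (4.81 ± 0.50), BIRC2 (3.79 ± 0.32) and TAB3 (3.28 ± 0.37) highest and LTB, TNF and TNFRSF18 (-2.62 ± 0.35) lowest. With trends removed the falls of BIRC2, BIRC3 and CYLD with TNFα were -1.14, -0.17 and -0.46 and none was called, whereas TRAF1 (3.34) was. TNFSF15 and TRAF5 were still called with E2 (-2.80 and -1.79), and TNFRSF18 (1.35) and BIRC2 (-0.82) were not. BIRC2 was not called with E2+ TNFα (-0.35). In the interaction BIRC3 and BIRC2 were at 1.64 and 1.61 and still called, and TAB3 (0.39) and TNFRSF18 (-1.31) were not.

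For each ligand the 3 tested genes with the most similar pattern over the 12 libraries were identified by Pearson correlation of log2 CPM, given as a description because the libraries share the 4 groups and their depth. For TNF these were IRF1 (0.99), CSF1 (0.98) and CEBPD (0.97). IRF1 had means of 15.8 ± 0.814 CPM in vehicle, 378 ± 18.9 in TNFα, 29.7 ± 4.35 in E2 and 122 ± 10.6 in E2+ TNFα (SD, n = 3), the order seen for TNF. For LTB they were NFKBIA (0.99), TNIP1 (0.99) and EFNA1 (0.98). For TNFSF10 they were ZNF438 (0.96), STK33 (0.94) and ZNF84 (0.94), each with its highest mean in vehicle.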

How the data were processed

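RNA was measured by stranded mRNA sequencing of 12 libraries, 3 for each of 4 treatments. Per the labels and the methods, the authors used TopHat2 2.1.0 to map reads to hg38 and featureCounts to assign them. The authors deposited raw whole-number counts per gene, and every count column was matched to a library. Exact repeats (46) and second symbols of a locus with identical counts (70) were dropped, which left 12451 entries. The 11303 genes that reached 1 RPKM in 3 or more libraries entered 1 edgeR 4.0.16 quasi-likelihood fit (R 4.3.3) of 4 group means after TMM scaling. TNF met this minimum through the groups given TNFα (mean 0.189 RPKM in vehicle and 0.738 in E2). TNFSF10 met it through vehicle (mean 1.94 RPKM, against 0.59 to 0.77 in the other groups). Both were thus tested because of the groups where they were high, and the counts of members called include them. Among the list genes, TNFSF15 met this minimum through the groups without E2, TRAF5 through vehicle and LTA through the groups given TNFα. The counts of list genes called include these as well. Printed CPM and RPKM use the TMM-scaled library totals. A gene was called at a log2 change of at least 1.5 in size, p under 0.05 and a Benjamini-Hochberg adjusted p of at most 0.1, the thresholds of the study. Intervals are 95% intervals of the fit with 8 residual degrees of freedom.

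Members, lists, ratios and tests were chosen with earlier results of these data known. Named were the 10 members, the 3 largest called rises and falls of the pathway lists in each comparison, and the 3 genes most correlated with each ligand. Members that were called in no comparison are named with their values. Alternatives were other size factors, filters, a fit of the compared groups, DESeq2 1.42.0, a replicate block, a factor from 20 housekeeping genes computed as in RUVg, loess removal (span 0.3) of trends with exon GC content and length, and leaving out each library. The direction splits, the ratios and the alternatives for the list genes were added after the data had been seen. Depth was 7.65 to 39.9 M reads per library, and values of few reads, such as 6 for TNF, carry most counting error. Counts of replicates differed by 10.2 to 71.3 times counting error (chi-square per degree of freedom), so no library was a duplicate. Promoters were taken from RefSeq (GRCh38.p14), which matched 6 of the 10 members, and those of TNFRSF10A, TNFRSF10B, TNFRSF12A and TRADD were not used here. The fit was tested on simulated counts in which 200 genes changed by a fixed size in E2+ TNFα only. It recovered 200 in E2+ TNFα against E2, with 1 false call, and 198 in the interaction, with 4. No gene was changed with TNFα or E2 alone, so recovery in those comparisons with vehicle was not tested. Far fewer genes were changed than were called relative to vehicle in the data.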

Additional observations from a re-analysis of the deposited data

Results flagged for a closer look

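The response to TNFα differed between cells with and without E2 for 4 of the 10 genes by a test of the difference itself (edgeR interaction, at a size of at least 1.5 and an adjusted p of at most 0.1). The difference was -4.10 for TNF, -4.66 for LTB, -1.99 for TNFRSF12A and -1.81 for TRADD on the log2 scale. TNF rose by 6.84 without E2 and by 2.74 with E2, and LTB rose by 6.44 and 1.78. TNFRSF12A changed by 1.74 without E2 and by -0.25 with E2, and TRADD by 1.63 and -0.18. The vehicle libraries enter each of these values, and 31.8% of all genes tested were called in the same test. TNF was tested because of the groups given TNFα. With trends removed the differences were -3.33, -3.48, -0.74 and -0.73 in the same order of genes, and with the housekeeping factor -3.61, -2.81, -0.54 and 0.12, so that the size was short of the threshold for TNFRSF12A and TRADD in both. The cause of this was not tested.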

How the results depend on the processing

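Of the 1004 recomputed log2 changes of the members, 913 kept their direction and their side of the thresholds, 40 fell short of them, 9 passed them newly and 42 changed direction. Among comparisons without vehicle, direction and side were kept for 304 of 318, and among those with vehicle, the interaction included, for 609 of 686. These totals pool all alternatives, many of which, such as leaving out a library, left the GC and length trends in place. With the housekeeping factor, 38 kept their direction and side, 10 fell short, 2 passed newly and 10 changed direction. The counts were the same with trends removed, without and with the replicate block. With the replicate block alone, 60 kept their direction and side. The cause of a change was not tested unless stated.

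With the housekeeping factor, with trends removed, and with trends removed and the replicate block, the genes called were 1036, 1185 and 1192 for TNFα against vehicle, 2077, 1574 and 1562 for E2, 1749, 1233 and 1247 for E2+ TNFα, and 1327, 1557 and 1554 for the interaction, against 3016, 3447, 2837 and 3593. The members called were 2, 2 and 2 for TNFα, 1, 2 and 2 for E2, 3, 3 and 3 for E2+ TNFα, and 2, 2 and 2 for the interaction, against 4, 5, 5 and 4. The share of calls that were higher became 48.5% (TNFα), 51.2% (E2), 55.6% (E2+ TNFα) and 54.7% (interaction) with the housekeeping factor. For E2+ TNFα against E2, the genes called were 30 in a fit of these groups only and 24 with at least 10 counts in every library, against 46, and leaving out 1 library gave 32 to 84 genes and 1 to 2 members. The 84 came without E2 replicate 3, and LTB was lost without E2+ TNFα replicate 3. The minimum of 10 counts left TNF untested, and so 1 member called in that comparison and 1 for E2+ TNFα against TNFα. Leaving out 1 library gave 3 to 5 members for E2 against vehicle. The 3 came without E2 replicate 1, which took TNF to 1.48 and TNFSF10 to -1.30. TNFSF10 was also not called with E2 without vehicle replicate 3 (-1.49) or with E2+ TNFα without E2+ TNFα replicate 1 (-1.42), and was called with TNFα without TNFα replicate 3 (-1.56).

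Library size alone moved the median of all genes to -0.19 (TNFα against vehicle), -0.38 (E2), -0.26 (E2+ TNFα), 0.31 (interaction) and 0.13 (E2+ TNFα against E2), and the higher share of calls to 16.4%, 17.4%, 20.0% and 83.9% in the first 4.

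The direction changed as follows. With the housekeeping factor, TNFα against vehicle gave TNFRSF1A -0.55, TNFRSF1B -0.58 and TRADD -0.061, E2 against vehicle gave TNFRSF1A -0.73, E2+ TNFα against vehicle gave TNFRSF1A -0.76, E2+ TNFα against E2 gave TRADD 0.061, E2+ TNFα against TNFα gave TNFRSF12A -0.042, and the interaction gave TNFRSF1A 0.52, TNFRSF1B 0.87 and TRADD 0.12. In the same fit BIRC3 with TNFα was 1.59, BIRC2 was 0.45 with E2 and 0.89 with E2+ TNFα, and the interaction of BIRC3 was -0.19. With trends removed, without and with the replicate block, TNFα gave TNFSF10 0.26 and 0.24, TNFRSF1A -0.0096 and -0.0087, and TNFRSF1B -0.011 and -0.011. E2 gave TNFSF10 0.075 and 0.045 and TNFRSF10A -0.35 and -0.36, and E2+ TNFα gave TNFRSF1A -0.024 and -0.023 and TNFRSF10A -0.063 and -0.064. The interaction gave TNFSF10 -0.59 and -0.61, TNFRSF1B 0.19 and 0.19, and TNFRSF10A 0.020 and 0.027. For E2+ TNFα against E2, TNFRSF21 was -0.0078 with the size factors of DESeq2 and -0.0082 with DESeq2, and the interaction of TNFRSF10B was 0.072 with library size only. Leaving out 1 library, E2+ TNFα against E2 ranged from -0.47 to 0.092 for TNFSF10, -0.032 to 0.22 for TNFRSF1B, -0.0013 to 0.21 for TNFRSF10A and -0.13 to 0.12 for TNFRSF21, and E2+ TNFα against TNFα from -0.15 to 0.039 for TNFRSF1A.

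Same-numbered libraries deviated together in 5 of 18 pairs (correlation over 0.1, range -0.48 to 0.47), and 4 of 18 correlated best with their own number, so the numbers do not pair the libraries. The replicate block alone left 36 genes for E2+ TNFα against E2 and changed no call of a member. Depth limits TNF and TNFSF15 in the E2 libraries.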
